A study of Mus musculus with 9 samples.

Results

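Hearts from mice given angiotensin II whose treatment label also carries the word Kmo (Kmo_AngII) were compared with hearts from mice given PBS, a salt buffer (Ctrl). The 2 groups were formed by the treatment description alone, and they hold 6 of the 9 libraries of the series, 3 in each group. The remaining 3 libraries, from mice given angiotensin II without the word Kmo (AngII), entered the fit to share its estimate of spread, and their values are given for some genes. They are compared with the same 3 Ctrl libraries, so likeness of the 2 angiotensin II groups in a gene chosen here is a description only. All mice are labelled C57BL/6 and the source of every library is heart. The labels do not explain Kmo, and they state no age, dose, duration or genotype. The title letters KKA mark the 3 Kmo_AngII libraries and no others, while Ctrl 1 carries the letters WC and Ctrl 2 and 3 carry WA. What KKA records can therefore not be told apart from the treatment label. WC and WA both occur in Ctrl and in AngII. Separate animals are not stated for the libraries within a group. The p-values therefore measure the spread between the libraries at hand, and that spread may be technical.

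Angiotensin II is the effector peptide of the renin-angiotensin system. It acts on heart muscle, vessels and fibroblasts through its type 1 receptor, and prolonged infusion in mice is used as a model of hypertension, cardiac hypertrophy, fibrosis and immune cell entry into the heart. Kmo is also the symbol of kynurenine 3-monooxygenase, an enzyme of tryptophan breakdown, but the labels do not say that the group label refers to it.

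The total count per library lay between 56827533 and 73194268, and 19091 of 55401 genes had enough counts to be tested. The summed level of 10 ventricular cardiomyocyte markers was between 16860 and 44220 CPM in the 6 libraries, where CPM is the count scaled to the TMM library size. Several libraries stood apart from others of their group. Kmo_AngII 3 had the lowest ventricular sum, and it held 469 CPM of the atrial light chain gene Myl7 and 289 CPM of the atrial calcium pump regulator Sln. Ctrl 2 held 47.7 and 35.0 CPM of these genes, and the other 4 libraries no more than 0.854 and 0.488. Kmo_AngII 3 also held 23.0 CPM of Upk3b and 28.1 CPM of Msln, markers of the mesothelial covering of the heart, against at most 2.41 CPM elsewhere among the 6. Kmo_AngII 2 held 85.1 CPM of the neutrophil gene S100a8 against at most 7.19 elsewhere. Ctrl 1 held 2199 CPM of the alpha haemoglobin gene Hba-a1, and the other 5 between 101 and 140. On the first principal component of the 6 libraries (37.53% of the variance), Ctrl 2, Ctrl 3 and Kmo_AngII 1 lay between 52.01 and 61.64, and Ctrl 1, Kmo_AngII 2 and Kmo_AngII 3 between -93.58 and -35.96. This component did not separate the groups. With AngII included, the first component (30.35%) had the 3 WC libraries between -42.35 and -30.74 and the 3 WA libraries between 44.4 and 65.27. Ctrl thus mixes letters that lay apart on it, and the Kmo_AngII libraries, all KKA, were at 62.35, -38.4 and -77.34. The part of these library differences in the results below was not tested. Values without the library concerned are given for some of the results that rest on it.

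No gene was called different between Kmo_AngII and Ctrl. The smallest Benjamini-Hochberg adjusted p in edgeR's quasi-likelihood test was 0.998, so 0% of the genes tested were called. At an unadjusted p under 0.05 there were 533 genes, or 2.79% of those tested, of which 359 were higher in Kmo_AngII (1.88%) and 174 lower (0.911%). In 1293 genes (6.77%) the 3 Kmo_AngII values did not overlap the 3 Ctrl values, with 789 higher (4.13%) and 504 lower (2.64%). Both criteria were met by 217 higher (1.14%) and 136 lower genes (0.712%). By the DESeq2 Wald test 9 genes passed, of which 3 were higher and 6 lower. By limma-voom 0 passed, with 257 higher and 187 lower genes at an unadjusted p under 0.05. A log2 difference of at least 1 in either direction was seen in 1643 genes, of which 448 did not overlap. The median standard error of a log2 difference was 0.39, and the biological coefficient of variation was 0.43. The differences leaned upward, since 10568 genes (55.4%) were positive, with a median of 0.05. Scaled by library size alone this median was 0.37, and 1164 genes were higher and 27 lower at an unadjusted p under 0.05. Each difference below is a log2 difference, Kmo_AngII minus Ctrl, ± SE. Since none passed the test, the genes and groups are described by level only.

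Among genes with at least a mean log2 CPM of 1, an established symbol and groups that did not overlap, the 14 positive differences of smallest p came from several functions. Hectd2 encodes a ubiquitin ligase, and it read 1.52, 2.53 and 1.20 CPM in Ctrl 1, 2 and 3 and 6.56, 5.003 and 6.67 CPM in Kmo_AngII 1, 2 and 3. Its difference was 1.80 ± 0.39, with AngII at 5.33, 2.99 and 2.45 CPM. H2-T22 encodes a non-classical class I major histocompatibility molecule and read 25.5, 17.9 and 17.9 CPM in Ctrl and 35.5, 42.1 and 31.3 CPM in Kmo_AngII. All 3 AngII values of H2-T22, 25.7, 27.0 and 28.6 CPM, lay between these groups, and its difference was 0.83 ± 0.21. Because class I genes are near-identical in sequence, how reads were divided among them is uncertain. Mx1, an interferon-induced antiviral GTPase, read 1.86, 1.50 and 0.973 CPM in Ctrl and 2.45, 3.87 and 3.99 CPM in Kmo_AngII, a difference of 1.25 ± 0.37. AngII had 2.48, 2.17 and 1.39 CPM of Mx1. Plcb2, a phospholipase C that is most familiar from blood cells, read 2.41, 1.88 and 1.88 CPM in Ctrl and 3.05, 6.82 and 5.23 CPM in Kmo_AngII, a difference of 1.29 ± 0.37. In Mx1 and Plcb2, Kmo_AngII 1 was the closest of its group to Ctrl.

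Sgpl1 encodes the lyase that breaks down sphingosine 1-phosphate. It read 12.1, 8.52 and 9.87 CPM in Ctrl and 13.4, 17.1 and 15.9 CPM in Kmo_AngII, a difference of 0.61 ± 0.20. All 3 AngII values of Sgpl1, 15.7, 14.3 and 14.9 CPM, also lay above Ctrl. Slit3, a secreted guidance protein, read 2.002, 2.72 and 2.22 CPM in Ctrl and 3.44, 3.55 and 8.46 CPM in Kmo_AngII. The Slit3 difference of 1.15 ± 0.38 was 0.60 without Kmo_AngII 3. Chaf1a, a subunit of the histone chaperone that follows DNA replication, read 2.36, 2.53 and 2.67 CPM in Ctrl and 3.94, 4.42 and 5.23 CPM in Kmo_AngII (0.85 ± 0.26). The other 7 were Sptbn5, Uap1l1, Arhgap19, Igf2, B3gnt8, Rassf2 and Tep1, with differences from 0.57 ± 0.19 in Tep1 to 6.20 ± 1.76 in Igf2.

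The promoter of H2-T22 is shown because this gene is the one of the named higher genes with a promoter in the table that holds the interferon response pattern. The pattern searched was GAAA, then any 2 bases, then GAAA again, on both strands of the 250 bases before the start, and it was found in 978 of 32851 promoters of all genes (2.98%). It was found in 9 of 16 promoters of the interferon-stimulated list (56.2%) and in 1 of 12 of the antigen presentation list (8.33%). Of the named genes it was in 1 of 10 promoters that were higher and 0 of 10 that were lower. The H2-T22 sequence is from RefSeq, build GRCm38.p6, chr17:36042743-36042992, minus strand, written 5′ to 3′. The capitals mark the match, which lies on the opposite strand and begins 191 bases before the start.
H2-T22 promoter: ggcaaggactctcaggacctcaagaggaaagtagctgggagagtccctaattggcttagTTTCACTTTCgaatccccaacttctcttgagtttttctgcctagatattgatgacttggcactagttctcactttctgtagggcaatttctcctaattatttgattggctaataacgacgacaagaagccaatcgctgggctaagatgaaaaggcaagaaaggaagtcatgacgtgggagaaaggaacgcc
The match is a description of these letters and not a measured binding site.

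The 14 negative differences of smallest p held heart genes, signalling genes and ribosomal pseudogenes. Mapkapk5, a stress-activated protein kinase, read 25.3, 33.9 and 39.4 CPM in Ctrl and 15.5, 9.09 and 15.9 CPM in Kmo_AngII, a difference of -1.28 ± 0.34. AngII had 10.2, 22.6 and 13.4 CPM of Mapkapk5, all below Ctrl. Cox20, an assembly factor of cytochrome c oxidase, read 19.6, 34.8 and 37.0 CPM in Ctrl and 19.6, 13.2 and 11.7 CPM in Kmo_AngII (-1.04 ± 0.31). The highest Kmo_AngII value of Cox20 and its lowest Ctrl value were nearly equal. Pla2g5, a secreted phospholipase A2 found in heart, read 8.31, 8.28 and 7.10 CPM in Ctrl and 5.79, 2.38 and 3.59 CPM in Kmo_AngII (-1.01 ± 0.32), with AngII at 4.83, 6.17 and 4.48 CPM. Gpr22 is an orphan receptor of heart and brain. It read 15.9, 18.3 and 22.3 CPM in Ctrl and 12.9, 12.4 and 9.95 CPM in Kmo_AngII (-0.68 ± 0.23).

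Klc2, a light chain of the kinesin motor, read 30.4, 35.1 and 40.0 CPM in Ctrl and 20.6, 22.8 and 23.1 CPM in Kmo_AngII (-0.66 ± 0.21), with AngII at 17.6, 25.9 and 20.2 CPM. Dglucy, which encodes the mitochondrial D-glutamate cyclase, read 22.9, 26.4 and 29.02 CPM in Ctrl and 20.4, 17.1 and 12.2 CPM in Kmo_AngII (-0.66 ± 0.22), with AngII at 12.7, 15.2 and 14.5 CPM. Tob2, an antiproliferative regulator of mRNA decay, read 26.7, 31.4 and 34.5 CPM in Ctrl and 21.2, 17.1 and 23.1 CPM in Kmo_AngII (-0.59 ± 0.20). The values of Klc2 were the tightest of these within Kmo_AngII. The other 7 were Sox12, Tmem267, Thap2, Ttll1, Zfp358 and the Rps2 pseudogenes Rps2-ps10 and Rps2-ps13, from -1.35 ± 0.42 in Tmem267 to -0.57 ± 0.19 in Rps2-ps13. The pseudogenes are near-copies of an expressed ribosomal protein gene, so their counts are uncertain.

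**Figure D1:**
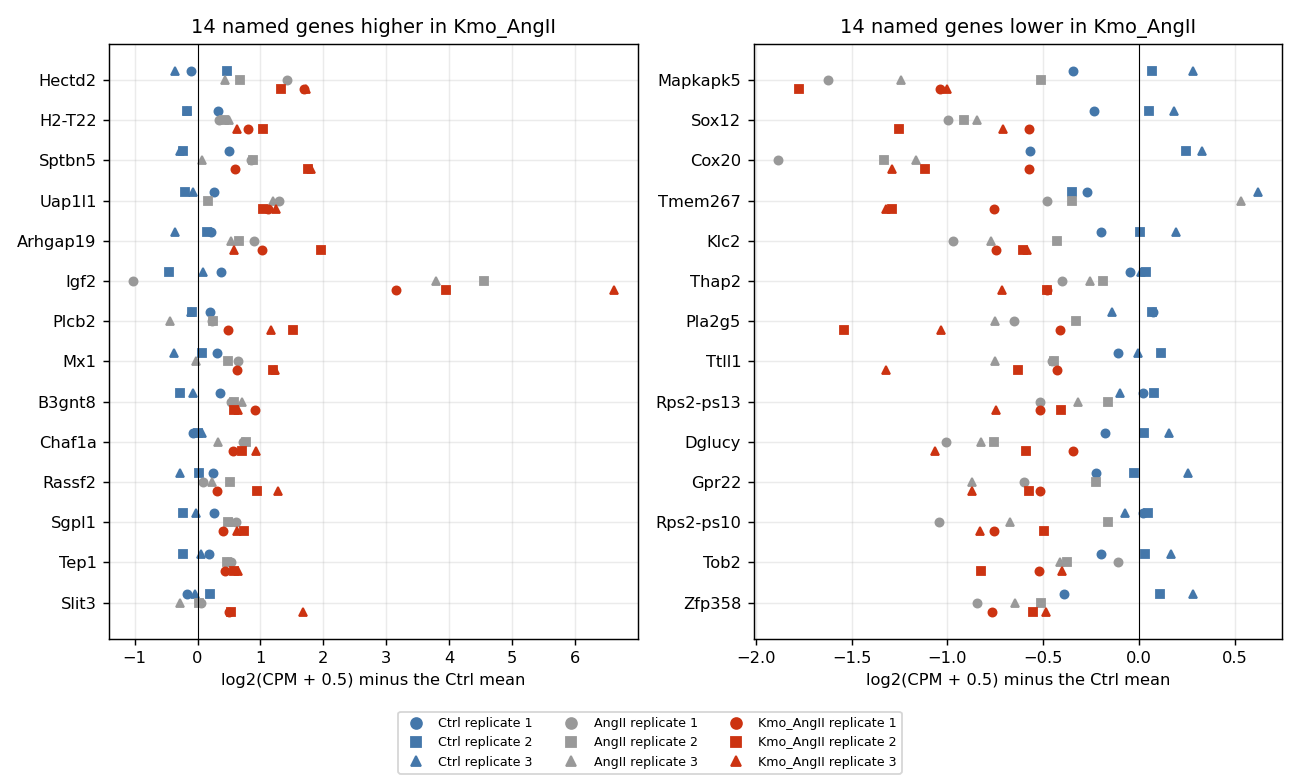
The 14 genes named as higher and the 14 named as lower in Kmo_AngII, each library as log2(CPM + 0.5) minus the Ctrl mean, ordered from the smallest p at the top. By the rule that chose them the red Kmo_AngII points do not overlap the blue Ctrl points, and grey points are the AngII libraries; Igf2 spans the widest range.

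Igf2, the fetal growth factor, gave the steepest difference of these 14 higher genes, and it shares its locus with a second gene model. Igf2 read 0.815, 0.239 and 0.573 CPM in Ctrl and 8.52, 15.1 and 98.9 CPM in Kmo_AngII. The predicted gene Gm49394 overlaps Igf2 on the same strand in GENCODE vM21, an annotation of another build used only for overlaps. Gm49394 read 20.6, 10.7 and 14.7 CPM in Ctrl and had 0 counts in each Kmo_AngII library. Against a floor of 3 counts per library, Gm49394 was at least 327.6-fold lower in Kmo_AngII. AngII 1 had 23.5 CPM of Gm49394 and 0 of Igf2, while AngII 2 and 3 had 0 of Gm49394 and 23.3 and 13.5 CPM of Igf2. A library with many counts in one of these genes thus had few or none in the other. The counts of both genes together were 21.5, 10.97 and 15.3 CPM in Ctrl and 8.52, 15.1 and 98.9 CPM in Kmo_AngII, so the groups overlapped. When overlapping genes were summed and refitted the difference was 1.36 ± 0.75. DESeq2's 9 calls, the single call in a fit of only the 6 libraries (edgeR adjusted p = 0.0265) and the single call without AngII 1 (edgeR adjusted p = 0.0296) all included Gm49394.

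Other named genes also differed less once counts of overlapping genes were added, a comparison chosen after the values were seen. Adam1a, a testis metalloprotease gene on the same strand as Mapkapk5, read 18.9, 11.1 and 9.41 CPM in Ctrl and 29.9, 33.1 and 16.0 CPM in Kmo_AngII. The sum of Mapkapk5 and Adam1a was 44.2, 45.0 and 48.8 CPM in Ctrl and 45.4, 42.2 and 31.9 CPM in Kmo_AngII, which overlap, and its difference was -0.21 ± 0.20. Hectd2os, on the strand opposite Hectd2, read 11.3, 17.2 and 14.4 CPM in Ctrl and 9.88, 5.32 and 1.34 CPM in Kmo_AngII. With Hectd2os added the difference of Hectd2 turned to -0.46 ± 0.31. The pair Olfr77, an olfactory receptor gene, and Gm7808 on the opposite strand also mirrored each other. Olfr77 had 0 counts in all Ctrl libraries and Gm7808 0 counts in Kmo_AngII 1 and 2, and the summed difference was -0.47 ± 0.52. As single genes, Hectd2 and Olfr77 were among the calls of the DESeq2 Wald test (adjusted p = 0.03085 and 0.02999). For B3gnt8, Cox20 and Chaf1a the overlapping genes were the more abundant, and the summed differences were -0.03 ± 0.43, 0.03 ± 0.25 and 0.02 ± 0.20. Sptbn5, which overlaps Gm28042 and Pla2g4b on the opposite strand, went from 1.60 to 0.53 ± 0.38 when summed with them. Tep1, Dglucy and Gpr22 kept their direction when summed, at 0.48 ± 0.17, -0.58 ± 0.20 and -0.49 ± 0.27. The strand setting of the counting is not given in the sources used here. How reads were divided between genes on opposite strands, such as Hectd2 and Hectd2os, can therefore not be told. Igf2 and Mapkapk5 lie on the same strand as their partners, where a strand setting would not separate the reads. The differences of Igf2, Mapkapk5 and Hectd2 as single genes hold only for the counts as deposited.

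**Figure D2:**
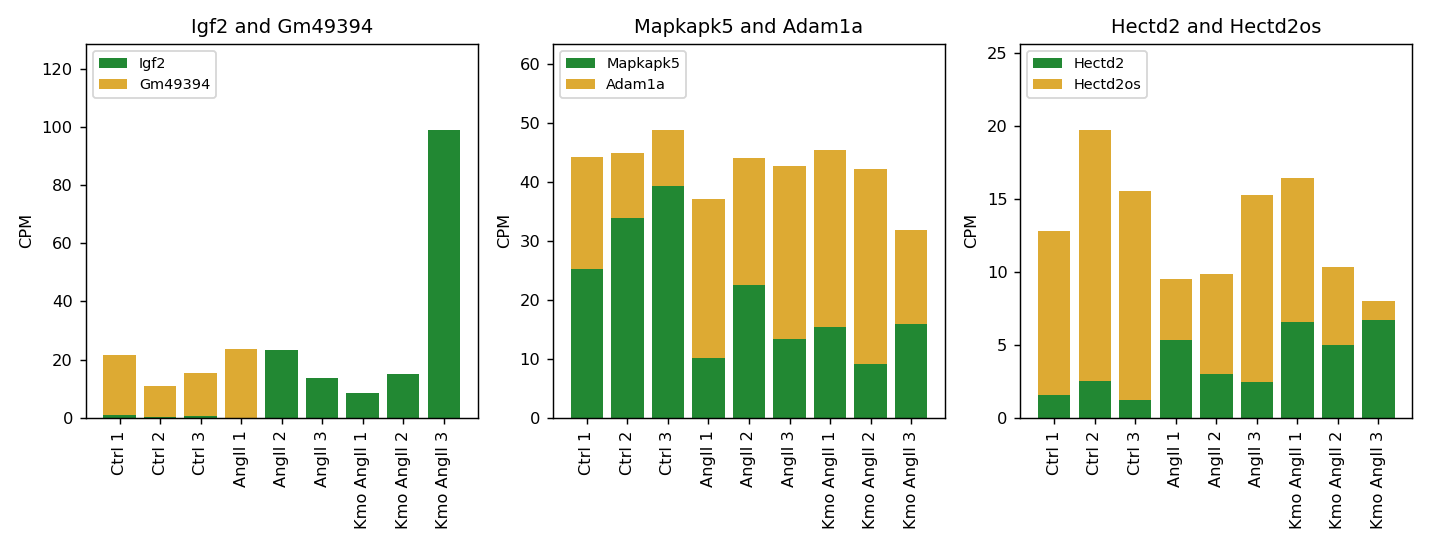
CPM of 3 pairs of overlapping genes in the 9 libraries, stacked so that the bar height is their sum. The share of Igf2, Mapkapk5 or Hectd2 in its bar differs between Ctrl and Kmo_AngII libraries, while the bar heights of the groups overlap.

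Genes of T and natural killer cells were higher in Kmo_AngII more often than other genes, at very low levels. Of 16 markers, 14 had a positive difference, with a median of 0.998, and 8 (50%) had Kmo_AngII values that all lay above Ctrl, against 4.13% of all genes tested. The mean level of the list, as log2(CPM + 0.5) relative to the Ctrl mean, was 0.52, 0.64 and 0.50 in Kmo_AngII and 0.39, -0.32 and -0.07 in Ctrl, so the groups did not overlap. The AngII libraries were at -0.09, 0.28 and -0.27, all below Kmo_AngII. Cd8a, the alpha chain of the cytotoxic T cell coreceptor, read 0.726, 0 and 0.469 CPM in Ctrl and 2.87, 2.70 and 2.31 CPM in Kmo_AngII, or at most 41 counts against at least 117. Its difference was 2.69 ± 1.02 with an unadjusted p of 0.0241 (edgeR), the one marker of the 16 under 0.05. Trac, the constant part of the T cell receptor alpha chain, read 0.850, 0.668 and 1.18 CPM in Ctrl and 1.29, 1.83 and 1.89 CPM in Kmo_AngII. Lck, the kinase that transmits the receptor signal, read 1.29, 0.382 and 0.643 CPM in Ctrl and 1.53, 1.86 and 1.64 CPM in Kmo_AngII. Ctrl 1 was the nearest to Kmo_AngII in Lck and in Trbc2, the receptor beta chain.

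Cd3g, a chain of the CD3 signalling complex, read 0.443, 0 and 0.261 CPM in Ctrl and 1.16, 0.808 and 0.572 CPM in Kmo_AngII. The remaining markers without overlap were Cd3d, Cd8b1, Trbc2 and Ncr1, of which Cd3d reached the next group by 0.296 against 0.295 CPM and Ncr1 had at most 16 counts in any of the 6 libraries. Ctrl 2 had 0 counts of Cd8a, Cd3g, Cd3d and Ncr1, and the list median was 0.73 without Ctrl 2 and 1.49 without Ctrl 1. Without each Kmo_AngII library in turn it lay between 0.89 and 0.96. The median stayed positive in all alternatives tried. The summed level of the 16 markers was 5.20 to 13.3 CPM in Ctrl and 15.3 to 18.3 CPM in Kmo_AngII. In bulk tissue, more cells of a type and more RNA per cell cannot be told apart. Of the 8 markers of thymus and lymphoid organs, Rag1, Rag2, Dntt and Foxn1 had 0 counts in all 6 libraries, and the other 4 were detected. The summed level of the 8 was 4.13 to 5.27 CPM in Ctrl and 4.06 to 5.41 CPM in Kmo_AngII.

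**Figure D3:**
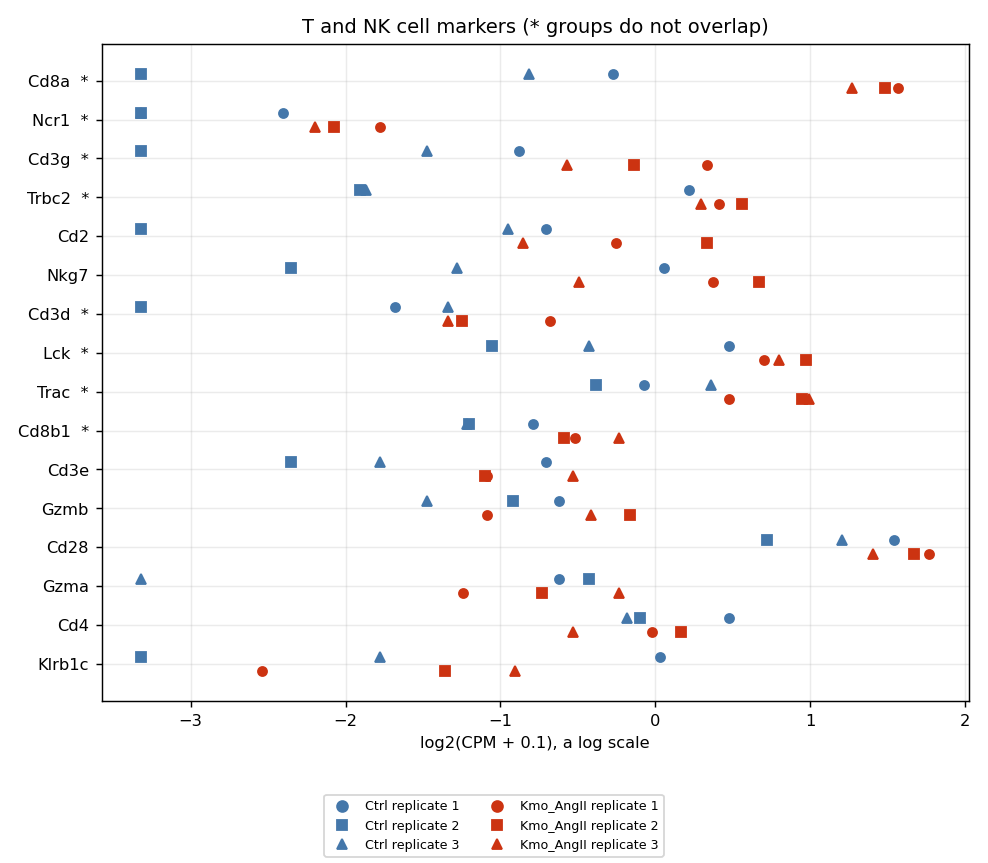
CPM of the 16 T and NK cell markers in each Ctrl and Kmo_AngII library, on a log2(CPM + 0.1) axis. Asterisks mark the 8 genes whose groups do not overlap; the leftmost points are libraries with 0 counts.

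Macrophage genes leaned in the same direction but followed 2 of the 3 libraries. All 15 macrophage and monocyte markers had a positive difference (55.4% of all genes), with a median of 0.57, and 2 (13.3%) lay above Ctrl without overlap, against 4.13% of all genes. Aif1, an actin-binding protein of macrophages, read 1.36, 0.859 and 0.782 CPM in Ctrl and 2.68, 1.52 and 3.71 CPM in Kmo_AngII (1.39 ± 0.43). Ccr2, the chemokine receptor of recruited monocytes, read 5.97, 3.67 and 4.36 CPM in Ctrl and 8.59, 7.69 and 9.39 CPM in Kmo_AngII (0.87 ± 0.33). The list level was 0.81 and 0.90 in Kmo_AngII 2 and 3 but -0.13 in Kmo_AngII 1, inside the Ctrl range of -0.17 to 0.22. Itgam, an integrin of myeloid cells, showed this split with 2.25 CPM in Kmo_AngII 1 and 10.4 and 9.14 in the others, against 1.002 to 3.21 CPM in Ctrl. Kmo_AngII 1 thus had high Ccr2 and Aif1 without the rest of the list.

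Of 27 chemokine and receptor genes, 21 were positive with a median of 0.56, and 7 (25.9%) had an unadjusted p under 0.05 against 2.79% of all genes. Ccl8, a monocyte attractant, read 1.59, 0.191 and 0.730 CPM in Ctrl and 0.430, 4.21 and 8.15 CPM in Kmo_AngII. Ccl6 read 6.47, 5.49 and 6.72 CPM in Ctrl and 3.62, 19.5 and 30.6 CPM in Kmo_AngII. Both genes were lower in Kmo_AngII 1 than in most Ctrl libraries and higher in Kmo_AngII 2 and 3. Ccl5, a T cell attractant that lymphocytes also make, read 1.38, 0.143 and 0.625 CPM in Ctrl and 2.63, 2.81 and 1.22 CPM in Kmo_AngII. The list median was 0.16 without Kmo_AngII 3.

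Genes of antigen presentation and the interferon response lay slightly higher. Of 17 antigen presentation genes 15 were positive (median 0.45) and none was without overlap. H2-K1, a classical class I molecule, read 248, 141 and 143 CPM in Ctrl and 239, 420 and 283 CPM in Kmo_AngII (0.82 ± 0.33). Psmb8, a subunit of the immunoproteasome, read 20.4, 9.64 and 10.3 CPM in Ctrl and 20.2, 25.9 and 19.8 CPM in Kmo_AngII (0.71 ± 0.29). In both genes Ctrl 1 reached the Kmo_AngII range and the other 2 Ctrl libraries did not. Of 20 interferon-stimulated genes 17 were positive with a median of 0.25 that was 0.11 without Kmo_AngII 3. Mx1 alone lay above Ctrl without overlap (5% against 4.13%).

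Complement genes were the list with the highest share of small p-values, and the difference was carried mainly by Kmo_AngII 3. Of 20 genes, 18 were positive with a median of 0.75, and 7 (35%) had an unadjusted p under 0.05 against 2.79% of all genes. C3, the central component, read 124, 57.2 and 91.4 CPM in Ctrl and 81.2, 218 and 538 CPM in Kmo_AngII (1.62 ± 0.61). Cfb, the protease of the alternative pathway, read 3.21, 2.79 and 2.21 CPM in Ctrl and 3.13, 6.86 and 30.9 CPM in Kmo_AngII (2.31 ± 0.72). C4b, of the classical pathway, read 40.0, 14.1 and 18.2 CPM in Ctrl and 16.4, 106 and 86.3 CPM in Kmo_AngII (1.53 ± 0.67). In these 3 genes Kmo_AngII 1 lay within the Ctrl range and the other 2 above it. C2 was the one member without overlap (5% against 4.13% of all genes). It read 0.602, 0.501 and 0.434 CPM in Ctrl and 1.03, 1.78 and 9.06 CPM in Kmo_AngII. The C2 difference of 2.94 ± 0.73 was 1.05 ± 0.49 when summed with the overlapping Zbtb12. Zbtb12 read 1.45, 2.22 and 3.54 CPM in Ctrl, above C2, and 3.46, 1.49 and 1.38 CPM in Kmo_AngII. The summed values of the groups overlapped. C1ra and C7 were also among the 7 (0.97 and 1.10). Without Kmo_AngII 3 the differences of C3, Cfb, C1ra and C7 were 0.72, 0.87, 0.24 and 0.21, and that of C4b was 1.35. The list median was 0.29 without Kmo_AngII 3. That library also had the highest fibroblast level, 1.34 against -0.12 to 0.11 in Ctrl, and the highest epicardial level, 2.87 against -0.51 to 0.39. The part of these cell type markers in the complement values was not tested.

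**Figure D4:**
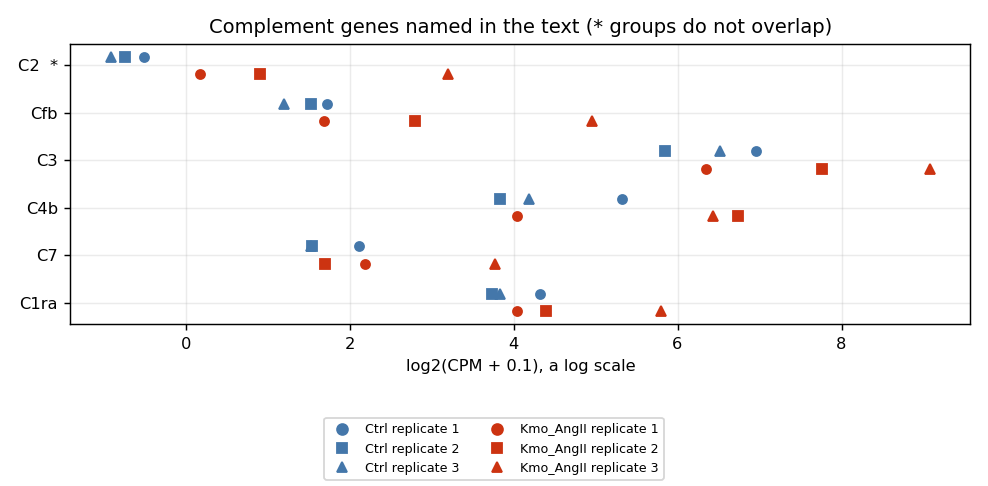
CPM of 6 complement genes in each Ctrl and Kmo_AngII library, on a log2(CPM + 0.1) axis. Kmo_AngII replicate 3 (triangles) is the highest point for 5 of the 6, Kmo_AngII replicate 1 (circles) lies within the Ctrl range for 4 of the 6, and the asterisk marks C2, the one gene without overlap.

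Ribosomal protein genes were the other list whose levels did not overlap. Of 20 cytosolic ribosomal proteins 17 were positive with a median of 0.19, and 4 (20%) did not overlap against 4.13% of all genes. The list level was 0.38, 0.17 and 0.06 in Kmo_AngII and 0.03, -0.05 and 0.02 in Ctrl, while AngII 1 and 3 stood at 0.41 and 0.40 and AngII 2 at -0.20. Rps19, of the small subunit, read 61.8, 39.7 and 38.7 CPM in Ctrl and 99.7, 90.5 and 63.7 CPM in Kmo_AngII (0.86 ± 0.40). Rpl8 and Rplp1 were also among the members without overlap, and no member had an unadjusted p under 0.05. Genes of this family have many near-identical pseudogenes, so their counts are uncertain.

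Heart muscle, energy and protein-folding lists leaned lower, and none was separated from Ctrl. The difference was negative in 18 of 20 genes of the hypertrophy and fetal programme (median -0.39), in 18 of 20 sarcomere genes (-0.25) and in 10 of 10 ventricular cardiomyocyte markers (-0.19), with 44.6% negative among all genes. It was negative in 19 of 20 genes of the tricarboxylic acid cycle (-0.44), 20 of 24 nuclear genes of oxidative phosphorylation (-0.26), 18 of 20 glycolysis genes (-0.35) and 18 of 20 fatty acid oxidation genes (-0.25). The level of the tricarboxylic acid cycle list was 0.49, -0.67 and -1.53 in Kmo_AngII and -0.69, 0.14 and 0.56 in Ctrl. Kmo_AngII 1 thus lay with Ctrl 2 and 3, Kmo_AngII 2 with Ctrl 1, and Kmo_AngII 3 below all others, and this order recurred in the sarcomere and oxidation lists. Without Kmo_AngII 3 the medians of the sarcomere, ventricular, oxidative phosphorylation and fatty acid lists were 0.06, 0.09, 0.11 and 0.09, that is, of the opposite sign. Those of the tricarboxylic acid cycle, hypertrophy and glycolysis lists were -0.10, -0.07 and -0.06. Without Kmo_AngII 1 the medians of these 3 lists were -1.24, -1.19 and -0.71, and the tricarboxylic acid cycle median was -0.12 without Ctrl 3. Scaled by library size alone, the medians of these 4 lists and of the hypertrophy and glycolysis lists were also positive (0.04 to 0.20), though below the median of all genes under that scaling.

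Of 20 heat shock genes 19 were negative (median -0.43) and of 20 genes of the unfolded protein response 19 (-0.26). Scaled by library size alone these medians were 0.00 and 0.07. The heat shock median was -0.24 without Kmo_AngII 3 and -0.83 without Kmo_AngII 1. Dnajb1, a co-chaperone of Hsp70, read 9.57, 10.7 and 13.2 CPM in Ctrl and 7.00, 8.07 and 7.08 CPM in Kmo_AngII (-0.59 ± 0.21), the one heat shock gene without overlap (5% against 2.64% of all genes lower). All 13 mitochondrially encoded genes tested were negative (-0.42). The 37 mitochondrially encoded genes made up 48.1% ± 4.62 of the counts in Ctrl and 42.5% ± 12.5 in Kmo_AngII (SD, n = 3 each). By library the share was 48.3%, 52.6% and 43.4% in Ctrl and 30.5%, 41.5% and 55.5% in Kmo_AngII, so the groups overlapped. The difference of -5.58 percentage points had p = 0.6 (exact two-sided permutation test), where 3 against 3 cannot go below 0.1. Without Kmo_AngII 1 the difference was 0.41.

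**Figure D5:**
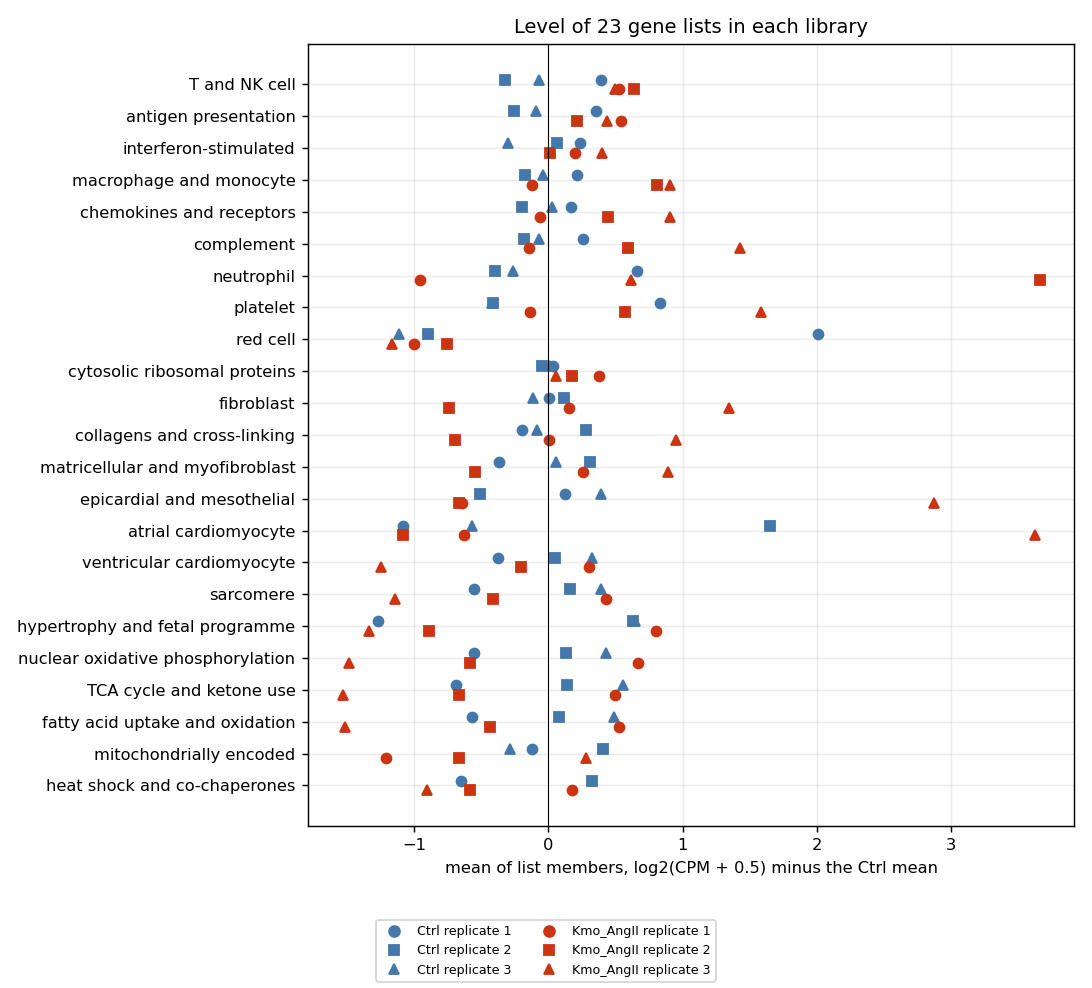
Mean level of 23 gene lists in each Ctrl and Kmo_AngII library, as log2(CPM + 0.5) minus the Ctrl mean. T and NK cell and ribosomal protein levels do not overlap between the groups. In the sarcomere, ventricular, hypertrophy, tricarboxylic acid cycle, nuclear oxidative phosphorylation and fatty acid lists Kmo_AngII replicate 1 lies near Ctrl replicates 2 and 3. Kmo_AngII replicate 3 lies lowest in these lists. In the mitochondrially encoded list Kmo_AngII replicate 1 lies lowest, and in the atrial list Kmo_AngII replicate 3 lies highest.

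The genes in the series title did not differ beyond the spread of the libraries. Josd2, a deubiquitinase, read 46.2, 50.1 and 54.0 CPM in Ctrl and 54.7, 62.3 and 31.8 CPM in Kmo_AngII, a difference of -0.01 ± 0.27. Of 20 deubiquitinases 15 were negative, with a median of -0.07 that was 0.29 when scaled by library size alone. Usp2, a deubiquitinase under clock control, read 58.5, 66.2 and 78.9 CPM in Ctrl and 42.0, 40.9 and 52.5 CPM in Kmo_AngII (-0.59 ± 0.25), and Bap1, which acts on histone H2A, read 22.5, 23.4 and 23.4 CPM against 30.0, 24.7 and 25.1 CPM (0.20 ± 0.19). These were the 2 members without overlap, 1 lower (5% against 2.64%) and 1 higher (5% against 4.13%). Atp2a2, which encodes the calcium pump SERCA2a, had a difference of -0.21 ± 0.61 and was 0.14 with 1 surrogate variable. Nppa, Nppb and Myh7, genes of the fetal programme, had differences of 0.31 ± 1.13, -0.43 ± 1.21 and -0.27 ± 0.38. Nppa, which is also in the atrial list, read 114, 604 and 1222 CPM in Ctrl and 1186, 121 and 1101 CPM in Kmo_AngII. Its difference was 0.016 without Kmo_AngII 3. Acta1, the skeletal actin of the fetal programme, read 11.5, 686 and 678 CPM in Ctrl and 633, 39.6 and 13.0 CPM in Kmo_AngII. Its difference of -1.005 ± 1.76 was -4.13 without Kmo_AngII 1 and 0.41 with the surrogate variable. The differences of Josd2, Atp2a2, Nppa, Nppb, Myh7 and Acta1 were each smaller than their standard error, and all 6 changed sign under at least 1 alternative.

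Kmo itself was at 42 to 51 counts in Ctrl and 25 to 43 in Kmo_AngII. It read 0.886, 1.002 and 0.886 CPM in Ctrl and 0.299, 0.473 and 0.849 CPM in Kmo_AngII (-0.78 ± 0.62), so that the groups did not overlap but came within a few hundredths of a CPM. The difference was -0.49 without Kmo_AngII 1 and -1.26 without Kmo_AngII 3. Kmo overlaps the more abundant Fh1 on the opposite strand, and summed with it the difference was -0.23 ± 0.59. AngII 1 had 0.247 CPM of Kmo, below every Kmo_AngII and Ctrl library. AngII 2 and 3 had 1.16 and 1.26 CPM, above every Ctrl library. Kyat1, a kynurenine aminotransferase, read 19.0, 15.3 and 18.2 CPM in Ctrl and 14.5, 13.8 and 12.9 CPM in Kmo_AngII (-0.35 ± 0.18). Kmo and Kyat1 were the 2 of 16 tested genes of the kynurenine and NAD list without overlap (12.5% against 2.64% of all genes lower), and the list median was -0.11, with 7 positive and 9 negative. The list median changed sign under several alternatives.

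Abcc9, Rgs5 and Cdh5 were the mural and endothelial markers without overlap. Abcc9, the sulphonylurea receptor subunit of the potassium channel of pericytes and heart muscle, read 143, 174 and 203 CPM in Ctrl and 128, 98.7 and 77.8 CPM in Kmo_AngII (-0.77 ± 0.27). Rgs5, a regulator of G protein signalling in pericytes, read 532, 509 and 612 CPM in Ctrl and 441, 368 and 302 CPM in Kmo_AngII (-0.57 ± 0.29). Abcc9 and Rgs5 were the 2 of 10 mural markers without overlap (20% against 2.64%), and 5 of the 10 were positive, so the list as a whole did not lean (median 0.03). Cdh5, the cadherin of endothelial junctions, read 226, 200.2 and 179 CPM in Ctrl and 126, 155 and 134 CPM in Kmo_AngII (-0.54 ± 0.25). It was the 1 of 10 endothelial markers without overlap (10% against 2.64%), while 7 of the 10 were positive (median 0.06). The matrix lists held 2 genes without overlap, in opposite directions. They were 1 of 20 collagen and cross-linking genes, lower (5% against 2.64% of all genes), and 1 of 20 matricellular genes, higher (5% against 4.13%). Col4a1, a basement membrane collagen, read 260, 351 and 296 CPM in Ctrl and 256, 235 and 218 CPM in Kmo_AngII. Its difference of -0.36 ± 0.28 was 0.0028 when scaled by library size alone. Ccn5, a matricellular protein, read 8.36, 6.44 and 7.90 CPM in Ctrl and 14.35, 8.92 and 11.6 CPM in Kmo_AngII (0.62 ± 0.29). Of 20 collagen and cross-linking genes 15 were positive, with a median of 0.28 that was -0.28 without Kmo_AngII 3. In that library Col14a1, a collagen of fibroblasts, read 32.5 CPM against 4.71 to 8.08 in the other 5.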

How the data were processed

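The deposited table holds whole-number counts per Ensembl gene and library, per the file headers, without scaling. The tools named in the submitters' processing notes, with no roles, are Bowtie 0.12.2, HISAT2 2.0 and StringTie 1.3.0, and the build is mm8. How reads were counted, with which annotation and strand option, is not given in the sources used here. Per the labels' protocols, poly(A) RNA was sequenced as paired ends. Symbols matched 55141 of 55401 genes. GENCODE vM21, of another build, served only to find overlapping genes, so no coordinates of measured genes are given. The promoter sequence is from RefSeq.

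All 9 libraries entered 1 fit with edgeR 4.0.16 in R 4.3.3 (quasi-likelihood F test with robust estimates, TMM, filterByExpr), and p-values were Benjamini-Hochberg adjusted over 19091 genes, with a call at an adjusted p under 0.05. The SE of a log2 difference was derived from the difference and its F statistic. The fit was tested on simulated counts, with large changes placed only in genes with many counts and a low spread. That test does not cover genes with few counts or small differences. Shares of counts were compared by exact permutation (scipy 1.17.1). CPM values use TMM library sizes, and list levels are means of log2(CPM + 0.5). Precision is lowest for genes with few counts.

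The comparison, the 33 pathway and 21 cell type lists and the rules were chosen with earlier results of these data known. The rule for named genes takes 7 index genes (Kmo, Josd2, Atp2a2, Nppa, Nppb, Acta1, Myh7), the 14 positive and 14 negative differences of smallest p with a mean log2 CPM of at least 1, an established symbol and no overlap, up to 2 genes per list by p, and genes called by an alternative with 5 or fewer calls. Members of lists beyond these 2, the overlapping partners, and Olfr77, Gm7808, Nmb and Gm15328 were chosen after their values were seen. Some list members are not reported here by name. Alternatives were DESeq2 1.42.0 size factors and Wald test, limma-voom (limma 3.58.1), library size alone, 2 other count filters, only the 6 libraries, no mitochondrially encoded or haemoglobin genes, 1 surrogate variable (sva 3.50.0), each library left out, and, added after the values were seen, counts summed over overlapping genes.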

Additional observations from a re-analysis of the deposited data

How the results depend on the processing

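The count of called genes was 0 in edgeR and 9 by the DESeq2 Wald test, 1 with only the 6 libraries, and 0 to 1 when 1 library was left out; it was 0 under the other alternatives. Of 1623 values of 90 named genes under alternatives, 33 in 18 genes reversed, and 8 passed. No paired analysis was possible because replicate numbers follow only the order of the samples. Scaled by library size alone, the log2 difference was 0.37 for Josd2, 0.23 for Atp2a2, 0.14 for Nppb, 0.12 for Myh7 and 0.0028 for Col4a1. With 1 surrogate variable it was 0.062 for Josd2, 0.14 for Atp2a2, 0.22 for Nppb, 0.41 for Acta1, -3.48 for Sln and -2.81 for Myl7. With limma-voom it was -0.32 for Msln and -1.09 for Upk3b. Summed with overlapping genes it was -0.46 for Hectd2, -0.035 for B3gnt8, 0.031 for Cox20, 1.36 for Gm49394 and -0.47 for Olfr77, by construction of the sum; in the other settings the cause was not tested. Leaving out each library in turn gave ranges of -0.21 to 0.22 for Josd2, -1.07 to 0.19 for Atp2a2, -0.19 to 1.16 for Nppa, -2.29 to 0.11 for Nppb, -4.13 to -0.45 for Acta1, -5.14 to 11.74 for Sln, -4.57 to 8.33 for Myl7, -2.67 to 4.32 for Msln, -3.50 to 3.68 for Upk3b, -0.29 to 4.12 for S100a8, -0.14 to 3.78 for S100a9 and -12.1 to 0.41 percentage points for the mitochondrially encoded share. Of the 54 list medians, 41 changed sign under at least 1 alternative, and 18 kept their sign relative to the median of all genes in every setting. At an unadjusted p under 0.05, 908 genes were higher and 912 lower without Kmo_AngII 1, 916 and 364 without Ctrl 1, and 443 and 476 with the surrogate variable, against 359 and 174. Several T cell genes had under 50 counts in a library, which limits their precision.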

Other observations

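Several cell type genes differed between libraries of the same label rather than between labels. Neutrophil granule genes were concentrated in Kmo_AngII 2. Mmp8, the neutrophil collagenase, read 16.8 CPM there and 0.122 to 0.967 CPM in the other 5 libraries. S100a9 read 129 CPM there and 1.50 to 10.2 CPM elsewhere. All 11 tested neutrophil genes had a positive difference, with a list median of 3.04 that was -0.10 without Kmo_AngII 2. The red cell list had a median of -2.64 that was -0.10 without Ctrl 1, and the atrial and epicardial lists had medians of 1.54 and 2.49 that were -0.95 and -2.49 without Kmo_AngII 3.

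A few low genes did not overlap between the labels, and Nmb and Gm15328 were chosen after their values were seen. Nmb, which encodes the peptide neuromedin B, read 1.04, 0.739 and 0.834 CPM in Ctrl and 2.01, 2.15 and 2.92 CPM in Kmo_AngII (log2 difference 1.43 ± 0.32). Its overlapping gene Sec11a was the more abundant, at 9.55 to 18.7 CPM in the 6 libraries. Summed with Sec11a the difference was 0.20 ± 0.25, and this sum follows mainly Sec11a. Tpsb2, a mast cell tryptase, read 0.213, 0.262 and 0.261 CPM in Ctrl and 0.370, 1.02 and 1.68 CPM in Kmo_AngII (2.05 ± 0.67). It had 11 to 15 counts in Ctrl and was the 1 of 5 tested mast cell markers without overlap (20% against 4.13%). The mast cell list median of 1.17 was -0.02 without Kmo_AngII 3. Gp1bb, a platelet receptor subunit, read 0.425, 0.310 and 0.104 CPM in Ctrl and 1.04, 0.671 and 0.651 CPM in Kmo_AngII (1.49 ± 0.63). Summed with its overlapping genes, of which Sept5 was the more abundant, the difference was 0.20 ± 0.27, and this sum follows mainly Sept5. Gp1bb was the 1 of 10 platelet markers without overlap (10% against 4.13%). The platelet list median of 1.15 was 0.08 without Kmo_AngII 3. The predicted transcript Gm15328 read 2.73, 3.17 and 3.53 CPM in Ctrl and 0.896, 0.686 and 1.10 CPM in Kmo_AngII (-1.81 ± 0.39). None of these passed the edgeR test across all genes, and DESeq2 called Nmb and Gm15328 (adjusted p = 0.03085 and 0.0176).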
